A study of Homo sapiens with 6 samples.

Results

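Potassium channels are membrane pores that let potassium ions pass selectively, and in most cells they hold the membrane voltage negative and shape cell volume, calcium entry and secretion. Pore subunits fall into voltage-gated, calcium- or sodium-activated, inward-rectifier and tandem-pore (K2P) families, and auxiliary subunits tune their gating and traffic. In tumour cells they are known mainly for effects on proliferation, volume and migration, with KCNN4, KCNMA1 and KCNH1 among the most studied.

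The genes described here are the rows whose symbol starts with KCN in a comparison table deposited by the authors, 62 of 15244 rows. RefSeq lists 96 protein-coding genes with such a symbol, and the other 34 were not analysed here. Of the 62, 11 had a mean normalized count of at least 20 and 51 a lower one. The last gene below that floor was KCNA6 at 18.3, and the first above it were KCNC4 at 24.8 and KCNG3 at 30.0. The floor acts on a mean over libraries, so a gene can pass it through 1 group alone. Counts among the genes above it are therefore a description.

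The study profiled ribosome-protected RNA (Ribo-seq) in 3 shALDH18A1 and 3 shControl samples of NCI-H1299, a human lung carcinoma line. A short hairpin RNA was directed at ALDH18A1, which encodes the proline synthesis enzyme P5CS, and the design text names the control puro. The question was how translation differs after this knockdown, in a series on P5CS as an RNA-binding protein. The labels do not say whether the 3 samples of a group were separate cultures, nor whether more than 1 hairpin was used.

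The deposited table holds 1 fold change per gene and no value per sample, so neither the depth of a library nor the spread between replicates could be given. It does not say which group is the numerator, nor whether the ratio is one of footprints or of footprints over RNA. Which libraries entered the mean normalized count is not stated either, so that mean is read below only as the scale of the table. Higher and lower below mean a positive or negative sign in the authors' deposited table and give no direction between shALDH18A1 and shControl. Fold changes were read as log2, ± is the deposited standard error (SE), and a gene was called at a deposited adjusted p under 0.05. ALDH18A1 itself, with a mean normalized count of 846, had a value of −0.19 ± 0.12 per the authors' deposited table (adjusted p = 0.173), so the targeted gene gave no check of the sign.

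In the authors' deposited table, rows called higher made up 28.9% of the whole and rows called lower 29.4%. Of 6 epithelial markers only the keratins KRT8 and KRT18 passed a mean normalized count of 20, at 6396 and 6869 in that table. EPCAM (11.4), KRT7 (5.32, called lower at −1.18 ± 0.48) and CDH1 (1.95) lay below it in the authors' deposited table, and KRT19 has no row. All 4 mesenchymal markers passed 20, with VIM at 22046. The lung adenocarcinoma markers NKX2-1 and MUC1 reached only 3.24 and 14.5, and NAPSA, SFTPB and SFTPC have no row in the table given here. Of 5 leukocyte markers only CD68 (2213) passed 20 there, and of 5 fibroblast markers only COL1A1 (26.9, not called) and PDGFRB (26.1, called higher).

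Of the 62 potassium channel genes, 26 were called higher, 0 were called lower and 36 were not called. At an unadjusted p under 0.05 the counts were 28 higher and 0 lower. The share of all rows at that unadjusted threshold was not computed, so these counts have no background here. The members called higher were 41.9% of the set, beside the 28.9% of all rows. The fold change was above 0 in 52 of the 62 genes, or 83.9%, beside 50.9% of all rows in the authors' deposited table. All 9 classes of potassium channel genes held at least 1 gene called higher. Their shares lay between 25.0% in the K2P channels and 54.5% in the inward rectifiers, a range that includes the 28.9% of all rows. Differences between these small classes were not tested.

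Many of these channels are best known from neurons, so neuronal and neuroendocrine markers were set beside them. Of 4 such markers 3 had a row, none with a mean of 20 or more, and their means summed to 38.7. SNAP25 (mean 18.8) and SYP (12.7), both of synaptic vesicle release, were called higher at 3.29 ± 0.67 and 2.23 ± 0.44 in the authors' deposited table, CHGA was not called (0.06 ± 0.59), and the neuronal nuclear marker RBFOX3 has no row. Their part in the channel genes' values was not tested. In bulk samples of 1 line, a different share of cells with signal for a gene and a different signal per cell cannot be told apart.

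Among the 11 genes with a mean normalized count of at least 20, 10 were called higher and the other, KCNH1, was not called. In rows above the same floor, 32.5% were called higher and 34.8% lower. The median log2 fold change of the 11 was 0.995, beside −0.03 for all rows above the floor in the authors' deposited table. Without the 3 genes of smallest p (KCNN4, KCNMA1 and KCNK6), the median of the remaining 8 was 0.88. Only 5 of the 10 called genes were higher by at least 1 on the log2 scale, and these 5 are the ones the authors marked as up, beside 14.4% of rows above the floor by either rule.

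**Figure D1:**
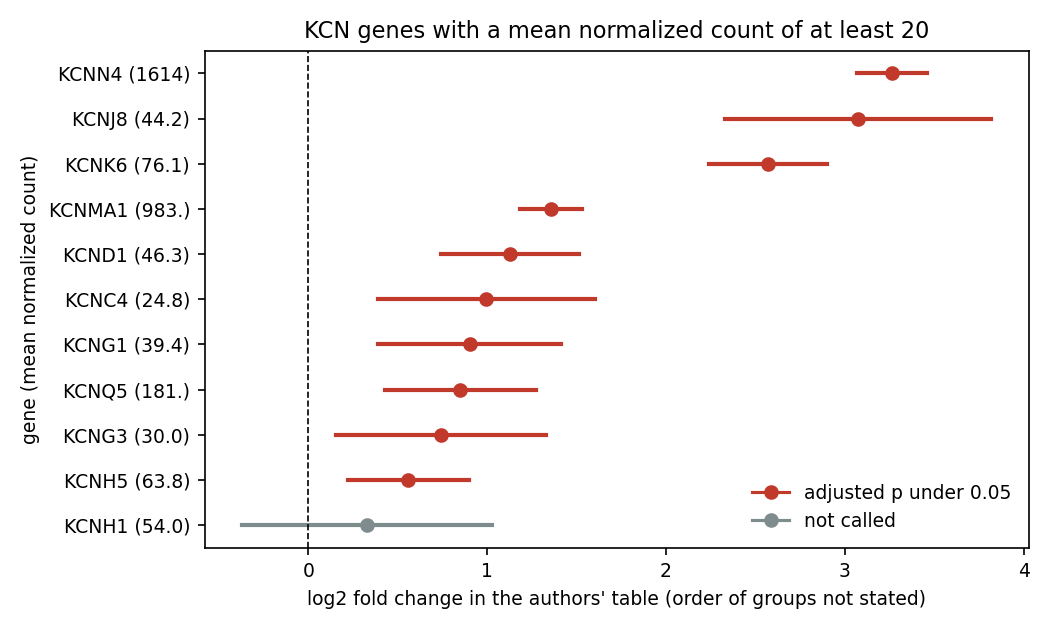
Log2 fold change (x axis) of the 11 KCN genes with a mean normalized count of at least 20, from the authors' deposited table. Points are the deposited values, lines the 95% interval from the deposited SE, and the mean normalized count stands in brackets; all points lie to the right of 0 and only the interval of KCNH1 crosses it.

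The calcium-activated channels KCNN4 and KCNMA1 had the highest mean normalized counts of the 62 genes. KCNN4 encodes KCa3.1, the intermediate-conductance channel opened by calcium through bound calmodulin, known from red blood cells and T cell activation. Its mean normalized count was 1614, and its fold change of 3.26 ± 0.10 per the authors' deposited table, a 9.60-fold difference, had an adjusted p of 9.95e-234. That p was number 5 in rank among all 15244 rows. KCNMA1 encodes the pore of the BK channel, a large-conductance channel opened by voltage and calcium together. It had a mean normalized count of 983 and a fold change of 1.36 ± 0.09 per the authors' deposited table (adjusted p = 5.01e-52), a 2.56-fold difference. The 95% intervals of the fold changes, 3.07 to 3.46 for KCNN4 and 1.18 to 1.53 for KCNMA1, were far apart. Together these genes held 75.9% of the summed mean normalized counts of the 62, a share that is not corrected for gene length.

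KCNN4 lies on chromosome 19 from 43766533 to 43780973 in GRCh38.p14, and no other annotated gene overlaps its span. KCNMA1 spans chromosome 10 from 76869602 to 77637808, and no protein-coding gene overlaps it. Noncoding genes and pseudogenes do overlap it, among them the long noncoding RNA gene KCNMA1-AS1 by 90550 bases. The part of shared reads in the value of KCNMA1 was not tested.

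The 3 small-conductance relatives of KCNN4, which share its calmodulin gating, were not called. KCNN1 had a mean normalized count of 12.5 and a value of −0.55 ± 0.39 in the authors' deposited table, the opposite sign to KCNN4 (adjusted p = 0.225). KCNN2 (1.88 ± 1.13) and KCNN3 (1.27 ± 1.45) had means of only 1.60 and 2.31 in the authors' deposited table. For the BK channel, the auxiliary gene KCNMB4, which slows its gating in neurons, was called higher at 1.95 ± 0.40 in the authors' deposited table (mean 12.1, adjusted p = 3.09e-06). Its relative KCNMB3 was not called (0.24 ± 0.53 per the authors' deposited table), and its span overlaps PIK3CA by 391 bases. The leucine-rich BK partner LRRC26 had 2.34 ± 1.15 per the authors' deposited table at a mean of 1.85 and was not called (adjusted p = 0.0686). KCNT2, a sodium-activated channel, was called higher at 1.62 ± 0.56 per the authors' deposited table, with a mean of 6.89.

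The inward rectifiers, which pass current more easily into than out of the cell, had the most called genes of any class. Of 11 genes, 6 were called higher (54.5%, beside 28.9% of all rows) and 0 lower (beside 29.4%). Their median fold change was 2.22 in the authors' deposited table. KCNJ8 encodes Kir6.1, the pore of ATP-sensitive potassium channels in vascular smooth muscle. It had a mean normalized count of 44.2 and a fold change of 3.07 ± 0.38 per the authors' deposited table (adjusted p = 4.30e-15), 8.42-fold. The span of KCNJ8 overlaps that of the long noncoding RNA gene KCNJ8-AS1, which has no row, by 9752 bases. The part of shared reads in the value of KCNJ8 was not tested. KCNJ11, which encodes the related pore Kir6.2 of pancreatic beta cells, had 2.58 ± 0.47 per the authors' deposited table at a mean of 15.2 (adjusted p = 2.00e-07).

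ATP-sensitive channels assemble a Kir6 pore with a sulfonylurea receptor, and the receptor gene with a row in the table stood at the other end of it. ABCC9, which encodes SUR2, had −5.74 ± 0.30 per the authors' deposited table at a mean of 196, a 53.6-fold difference (adjusted p = 2.48e-79), number 6 in rank from the lowest fold change. The 95% interval ran from −6.33 to −5.15 for ABCC9 and from 2.33 to 3.82 for KCNJ8. The opposite signs came from neighbouring genes. KCNJ8 lies on chromosome 12 from 21764955 to 21774706 and ABCC9 from 21797389 to 21941426, with 22682 bases between their spans. Of the 9 partner genes outside the KCN names 3 had a row, and beside ABCC9 these were LRRC26 and AMIGO1, a Kv2 partner that was not called (0.89 ± 0.46 per the authors' deposited table). The difference between the fold changes of KCNJ8 and ABCC9 was not tested, since the table gives no value per sample.

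The other inward rectifiers called higher had low mean normalized counts. KCNJ15, which encodes Kir4.2, had the highest fold change of all 62 genes, 4.28 ± 0.66 in the authors' deposited table, or 19.5-fold, at a mean of 6.56 (adjusted p = 3.69e-10). KCNJ3, a G protein-gated (GIRK) subunit, had 2.76 ± 0.89 in the authors' deposited table. KCNJ4 and KCNJ12, strong rectifiers of the Kir2 group, had 2.75 ± 1.09 and 2.22 ± 0.62 in the authors' deposited table. These last 3 had means of 2.56, 1.72 and 3.98 in the order named. KCNJ12 and KCNJ18 are near-identical copies whose reads the counting could have split, which leaves both values uncertain. KCNJ18 had 1.49 ± 1.21 in the authors' deposited table and was not called.

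Among K2P channels, which carry the leak current that sets the resting voltage, 2 of 8 were called higher. That share of 25.0% is no higher than the 28.9% of all rows. Below the floor 1 of 7 was called higher, beside 16.7% of such rows, and the 1 gene above it was called. KCNK6 encodes TWIK2, known as a potassium exit route in macrophage inflammasome activation. Its mean normalized count was 76.1 and its fold change 2.57 ± 0.17 in the authors' deposited table, 5.94-fold (adjusted p = 1.15e-51). KCNK6 lies on chromosome 19 from 38319845 to 38332076, and its span overlaps that of the trafficking gene YIF1B by 2043 bases. YIF1B was higher as well, at 1.61 ± 0.12 with a mean of 3722 in the authors' deposited table. It was named after its value was seen. Whether the counting used strand is not given in the sources used here, and the part of shared reads in the value of KCNK6 was not tested. KCNK2 encodes TREK-1, a channel opened by stretch and lipids, and had 2.13 ± 0.83 per the authors' deposited table at a mean of 2.70 (adjusted p = 0.0198).

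The promoters of the 4 members with the smallest p and of ABCC9 are shown because KCNJ8 and its neighbour ABCC9 differ in sign, while the others share theirs. Each run is the 250 bases before the annotated start on the gene's own strand, from RefSeq (GRCh38.p14), and for KCNMA1 the first of the 2 listed starts was used. Capitals mark letters that match 1 of the motifs searched on both strands, of which the GC box GGGCGG and the E-box CACGTG occurred in these runs.
KCNN4 promoter (chr19:43780974-43781223, minus strand): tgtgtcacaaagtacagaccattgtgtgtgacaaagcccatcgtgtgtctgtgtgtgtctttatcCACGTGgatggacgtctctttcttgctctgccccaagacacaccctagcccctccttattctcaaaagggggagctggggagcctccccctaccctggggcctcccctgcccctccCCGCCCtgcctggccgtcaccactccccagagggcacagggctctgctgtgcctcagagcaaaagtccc
KCNMA1 promoter (chr10:77637809-77638058, minus strand): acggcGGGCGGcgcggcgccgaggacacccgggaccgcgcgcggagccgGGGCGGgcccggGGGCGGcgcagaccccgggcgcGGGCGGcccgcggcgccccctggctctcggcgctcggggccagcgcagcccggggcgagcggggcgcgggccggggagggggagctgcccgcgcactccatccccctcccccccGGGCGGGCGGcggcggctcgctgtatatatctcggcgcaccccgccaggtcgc
KCNK6 promoter (chr19:38319595-38319844, plus strand): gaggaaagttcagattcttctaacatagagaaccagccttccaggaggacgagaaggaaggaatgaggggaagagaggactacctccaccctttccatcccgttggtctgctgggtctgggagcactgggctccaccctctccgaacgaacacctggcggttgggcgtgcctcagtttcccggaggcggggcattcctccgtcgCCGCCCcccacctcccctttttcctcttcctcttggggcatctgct
KCNJ8 promoter (chr12:21774707-21774956, minus strand): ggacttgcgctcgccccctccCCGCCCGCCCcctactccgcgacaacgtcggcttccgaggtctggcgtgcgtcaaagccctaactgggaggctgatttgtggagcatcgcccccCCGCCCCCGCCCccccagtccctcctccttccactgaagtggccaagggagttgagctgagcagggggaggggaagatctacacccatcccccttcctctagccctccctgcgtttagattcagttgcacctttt
ABCC9 promoter (chr12:21941427-21941676, minus strand): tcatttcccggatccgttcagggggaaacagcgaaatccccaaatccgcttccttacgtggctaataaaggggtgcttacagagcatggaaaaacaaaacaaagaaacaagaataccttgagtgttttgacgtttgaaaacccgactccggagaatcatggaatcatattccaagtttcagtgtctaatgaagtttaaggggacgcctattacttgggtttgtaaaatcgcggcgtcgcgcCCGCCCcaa

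A GC box was found in each of these 5 runs, 6 times in KCNMA1 and 4 times in KCNJ8, with 1 overlapping pair in each, and once each in KCNN4, KCNK6 and ABCC9. It is a common motif, present in 46.2% of the 27305 genes with a promoter of this length and in 32 of the 47 potassium channel genes matched to the promoter table, or 68.1%. The E-box of KCNN4 occurs in 7.73% of genes and in 4 of the 47. The AP-1 motif TGANTCA (7 of the 47, beside 8.06% of genes), the cAMP response element TGACGTCA (1 of the 47, beside 2.03%) and the TATA box TATAAA (6 of the 47, beside 13.0%) were in none of the runs shown. A match describes letters in the window and is not a measured binding site.

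**Figure D2:**
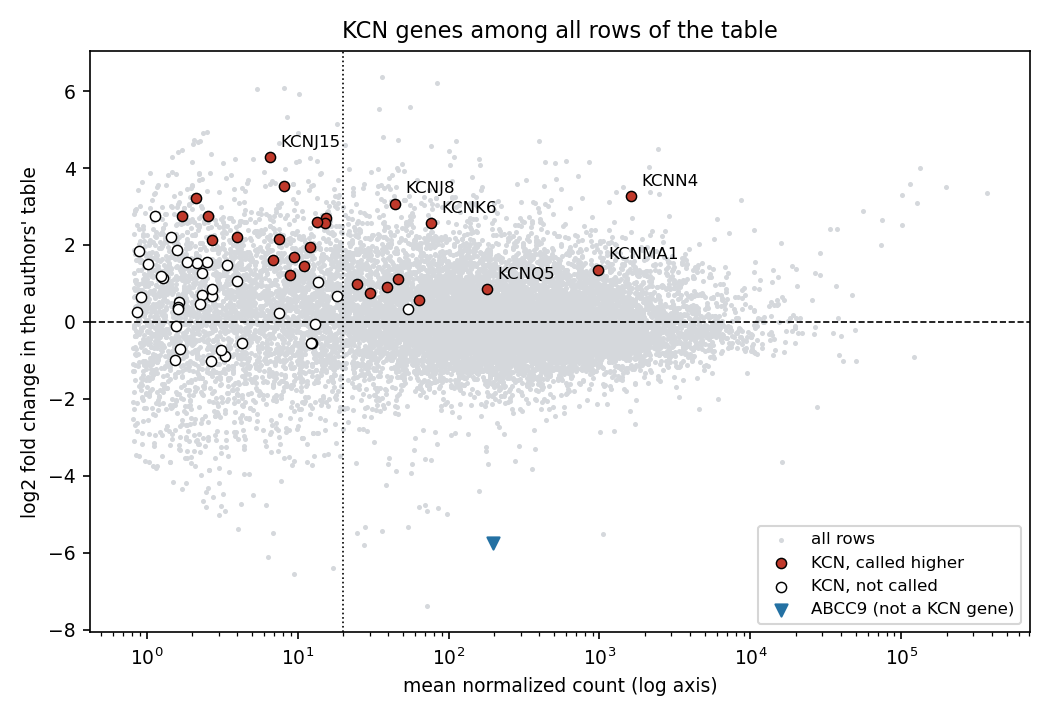
Mean normalized count (x axis, log scale) against log2 fold change (y axis) for all 15244 rows of the authors' deposited table (grey) and the 62 KCN genes (circles, filled where called higher); the dotted line marks a mean of 20. KCNN4 and KCNMA1 stand alone at the right among the KCN genes, the 10 KCN points below 0 all lie left of the dotted line, and ABCC9 lies at −5.74.

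Voltage-gated pore subunits open on depolarization and repolarize excitable cells. Of 9 genes of the Kv1 to Kv4 groups, 3 were called higher, a share of 33.3% beside the 28.9% of all rows. Above the floor 2 of 2 were called higher, beside 32.5% of such rows, and below it 1 of 7, beside 16.7%. KCND1, which encodes the fast inactivating Kv4.1, had 1.13 ± 0.20 per the authors' deposited table at a mean of 46.3 (adjusted p = 4.65e-08). KCNC4, which encodes the Kv3 member Kv3.4, had 0.995 ± 0.31 per the authors' deposited table at a mean of 24.8 (adjusted p = 0.00291). KCNA6 lay just under the floor and was not called, at 0.68 ± 0.35 per the authors' deposited table (adjusted p = 0.0885).

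Modifier subunits form no channel alone and alter Kv2 channels when they join them. KCNG1 and KCNG3, both above the floor, had 0.90 ± 0.26 and 0.74 ± 0.30 per the authors' deposited table (adjusted p = 0.00128 and 0.0247). KCNV1 was called higher at 1.46 ± 0.50 per the authors' deposited table with a mean of 11.1, and the other 4 measured modifiers were not called. KCNG3 had the largest adjusted p of the called genes above the floor.

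In the Kv7 group, which carries the M-current that damps neuronal firing, 2 of 4 genes were called higher and 0 lower. Beside these counts stand 28.9% of all rows called higher and 29.4% called lower. Below the floor 1 of 3 Kv7 genes was called higher, beside 16.7% of rows there. KCNQ5 had a mean normalized count of 181 and a fold change of 0.85 ± 0.22 per the authors' deposited table (adjusted p = 0.000219). KCNQ3 had a negative value of −0.89 ± 0.72 in the authors' deposited table and was not called (adjusted p = 0.289).

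The EAG, ERG and ELK channels are voltage-gated pores with a cyclic nucleotide-binding-like domain. All 8 genes of this class had a row, and 3 were called higher, a share of 37.5% beside the 28.9% of all rows. KCNH5 (Eag2) had 0.56 ± 0.17 per the authors' deposited table at a mean of 63.8 (adjusted p = 0.00246). Its close relative KCNH1 (Eag1), often studied in tumours, had 0.33 ± 0.36 at a mean of 54.0 and was not called (adjusted p = 0.446 per the authors' deposited table). The 95% interval of KCNH1, −0.37 to 1.03, contains the whole interval of KCNH5, 0.22 to 0.90, so these data do not separate them. KCNH7 (Erg3) had 2.61 ± 0.48 at a mean of 13.5, and KCNH2 (hERG), which repolarizes heart muscle, had 2.15 ± 0.60 at a mean of 7.57 in the authors' deposited table. The span of KCNH7 overlaps that of GCA by 3990 bases, and GCA was itself higher at 0.69 ± 0.13 in the authors' deposited table. GCA was named after its value was seen.

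None of the 7 Kv auxiliary genes with a row reached a mean of 20, and 3 were called higher. That share of 42.9% stands beside 28.9% of all rows and 16.7% of rows below that mean. KCNAB1, a cytosolic beta subunit that speeds Kv1 inactivation, had 3.54 ± 0.72 in the authors' deposited table, 11.6-fold, at a mean of 8.08 (adjusted p = 2.61e-06). KCNIP3, a calcium-binding partner of Kv4 channels, had 1.70 ± 0.65, and KCNRG, which hinders Kv1 assembly, had 1.21 ± 0.45 in the authors' deposited table. The span of KCNRG overlaps 3024 bases of TRIM13, which was not called (0.31 ± 0.16 per the authors' deposited table). The Kv4 pore KCND1 and its partner KCNIP3 were thus both called higher, whereas the further Kv4 partners KCNIP2 (0.84 ± 0.73) and KCNIP4 (1.19 ± 0.99) were not called in the authors' deposited table.

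**Figure D3:**
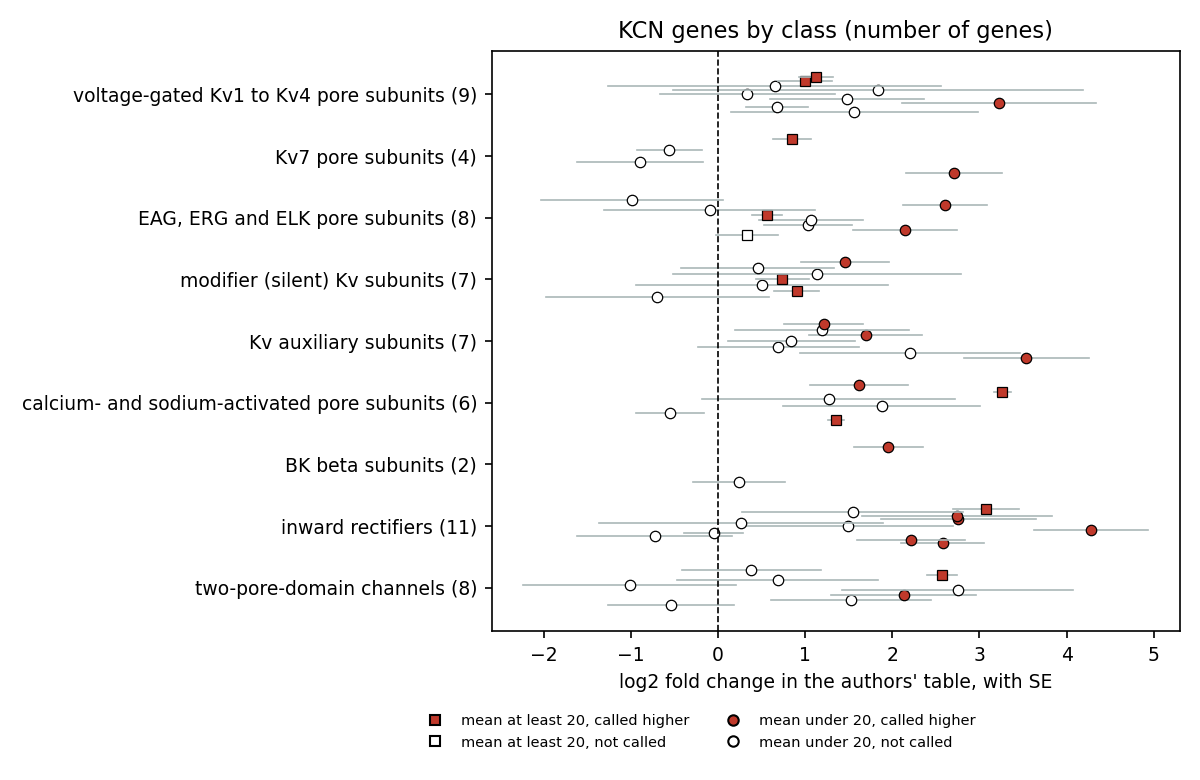
Log2 fold change (x axis) of the 62 KCN genes in the authors' deposited table, by class (rows, with the number of genes). Lines span the deposited SE either side; squares have a mean normalized count of at least 20 and circles less, and filled symbols were called higher. Every class holds a filled symbol, and no gene was called lower, where 28.9% of all rows were called higher and 29.4% lower.

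Of the 51 genes below the floor, 16 were called higher and 0 lower, with 16.7% of rows below the floor called higher and 11.1% lower. The fold change was above 0 in 41 of the 51, or 80.4%, beside 58.7% of rows below the floor. Their median was 1.21 in the authors' deposited table, beside 0.29 for all rows below the floor, where a median above 0 is thus general. The 16 called genes ran from 1.21 for KCNRG to 4.28 for KCNJ15 in the authors' deposited table.

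The 35 genes below the floor that were not called had a median SE of 1.01, against 0.22 in the 11 genes above the floor. For 34 of the 35 the 95% interval reached at least 1 on the log2 scale in some direction, so a difference of that size was not detectable there. The exception was KCNJ14, at −0.05 ± 0.34 in the authors' deposited table. Its interval ran from −0.72 to 0.62, and its span overlaps 1449 bases of GRWD1. Beside those given above, the genes not called included KCNA5, KCNB2, KCNC1, KCNC2, KCNF1, KCNG2, KCNG4, KCNS3, KCNAB2, KCNAB3, KCNH3, KCNH4, KCNH6, KCNH8, KCNJ2, KCNJ6, KCNJ13, KCNK3, KCNK4, KCNK5, KCNK7, KCNK13 and KCNK15. Their fold changes ran from −1.01 for KCNK4 to 2.75 for KCNK3 in the authors' deposited table. KCNK3 and KCNH3 carry the authors' own mark for up, which rests on an unadjusted p, and have adjusted p of 0.0645 and 0.0682.

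Of 26 genes for trafficking and modulation of the channels, 7 were called higher and 13 lower, with a median of −0.30. The share called higher, 26.9%, was near the 28.9% of all rows, and 13 of 26 called lower stands beside 29.4% of all rows. S100A10, which aids surface delivery of the K2P channel TASK-1, had −1.96 ± 0.08, and NEDD4L, a ubiquitin ligase that removes channels from the membrane, had −1.43 ± 0.08 in the authors' deposited table. CAV1, the caveolar scaffold protein, was called higher at 1.12 ± 0.10 in the authors' deposited table.

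Of 17 pump and cotransporter genes that move potassium, 8 were called higher (47.1%, beside 28.9% of all rows) and 2 lower (11.8%, beside 29.4%), with a median of 0.90. The sodium pump, which supplies the potassium gradient, was higher in its beta subunit ATP1B3 (1.50 ± 0.11) and its modulator FXYD5 (2.31 ± 0.13) in the authors' deposited table. The 20 KCTD genes share a tetramerization domain with voltage-gated potassium channels but encode no pore, and of these 1 was called higher and 8 lower (median −0.20). KCTD5 had −1.38 ± 0.11, KCTD20 −0.81 ± 0.08, KCTD10 −0.82 ± 0.10 and KCTD17 −1.02 ± 0.19 in the authors' deposited table.

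For other channel families the counts stand beside the same shares of all rows, 28.9% higher and 29.4% lower. Calcium channel genes were called higher in 9 of 13 and lower in 0 (median 1.41). TRP and mucolipin genes, which form mostly non-selective cation channels, were called higher in 6 of 17 and lower in 0 (median 0.49). Chloride channel genes counted 12 higher and 5 lower of 22 (median 0.51), and sodium channel genes 4 higher and 3 lower of 14 (median −0.23). Of 4 HCN and cyclic nucleotide-gated genes, 2 were called higher and 1 lower, the pacemaker channel HCN4 at −3.46 ± 0.36 in the authors' deposited table (mean 15.1, named after its value was seen). Calls without a single lower gene were thus also seen in the calcium and TRP lists, and no difference between lists was tested.

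**Figure D4:**
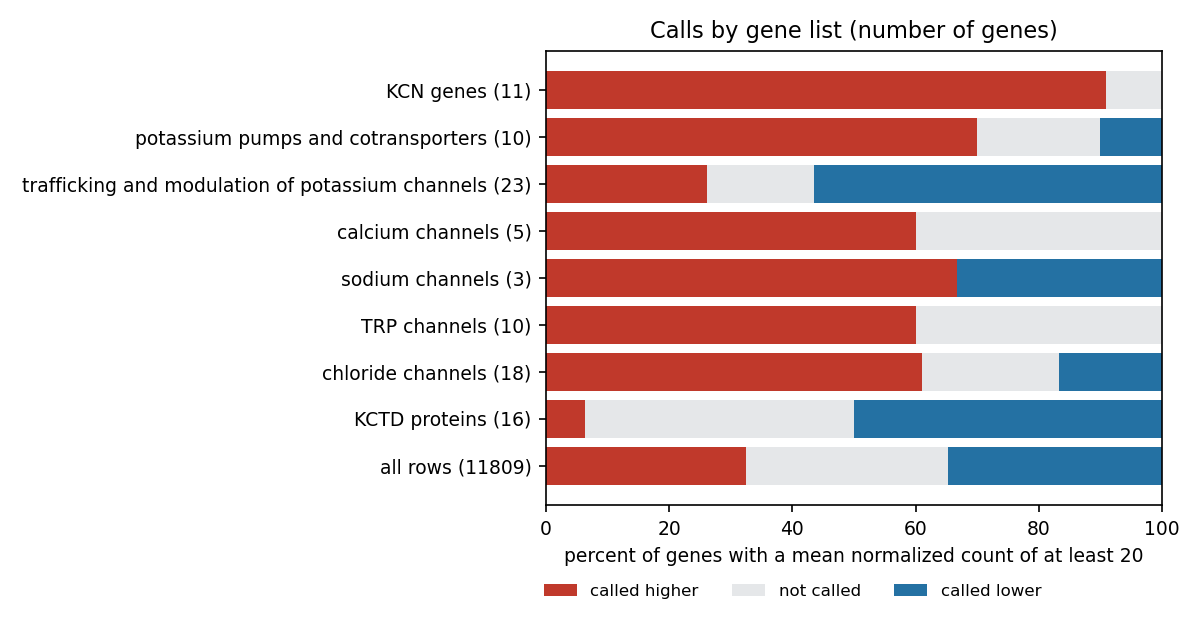
Percent of genes called higher (red), not called (grey) and called lower (blue) among genes with a mean normalized count of at least 20 (x axis), for the KCN genes, 7 related lists and all rows, with the number of genes in brackets. The KCN bar shows 10 of 11 genes higher, the KCTD bar 1 of 16 higher and 8 lower, and all rows 32.5% higher and 34.8% lower.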

How the data were processed

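The values came from 1 comparison table that the authors deposited, with no column of values per sample (0 columns left out). The submitters' processing notes name fastp 0.23.2, STAR 2.7.10a, featureCounts and hg38, while settings, annotation, use of strand and the model are not given in the sources used. The deposited mean per gene is a signal on a normalized count scale, per the file headers. The deposited fold change and its SE were taken as log2 from the column layout. The deposited score is the fold change over its SE, and the deposited p-values carry a Benjamini-Hochberg adjustment over all rows, which recomputing matched to within 7.42e-06.

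No count test could be run, so the planned fallback, the deposited adjusted p under 0.05, was used. Intervals are 95%, from the SE. Depth per sample is unknown, and precision rests on the SE. Where replicates were not separate cultures, p-values measure technical spread.

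All 62 members matched RefSeq (GRCh38.p14) by Entrez ID, which gave names, spans and overlaps. Promoters were matched by symbol. The planned search of protein sequences was not run, since no protein table was used here. Members and lists were chosen with earlier results of these data known. Every member at or above the floor, and every called member below it, was to be named, with up to 4 called genes of a related list at a mean of at least 20. A few genes that this rule names are not reported here. For channel families other than potassium, counts and median fold changes are given, and 1 gene, HCN4, was named after its value was seen. Adjustment steps were tested on simulated data. Software was pandas 2.3.3, scipy 1.17.1, numpy 2.4.6 and, for plots, matplotlib 3.10.9 under Python 3.11.15.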

Additional observations from a re-analysis of the deposited data

How the results depend on the processing

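No paired analysis was possible because the table has no column per sample, and for the same reason leaving out replicates and the DESeq2 and edgeR alternatives were not run. No potassium channel gene was called lower under any of the 9 other call rules tried, and 11 of the 26 called genes kept their call under each rule that could be applied to them. For all potassium channel genes, the count of 26 became 11 with Bonferroni adjustment. It became 10 of 11 genes considered with adjustment over rows of at least 20 and 3 of 3 over rows at or above the median mean, since both settings leave out genes by construction. For genes with a mean of at least 20, the count of 10 became 5 with a log2 fold change minimum of 1, with Bonferroni adjustment, with the authors' marks and with a floor of 50 (of 6 genes). It became 3 with a floor of 100 (of 3) and with adjustment over rows at or above the median mean. For genes with a mean under 20, the count of 16 became 9 with Benjamini-Yekutieli and 6 with Bonferroni adjustment. The median fold change of the genes above the floor moved from 0.995 to 1.36 with a floor of 100, and stayed within 0.22, the median SE, under the other settings. Centring on the median of all rows (0.02) changed no call of a potassium channel gene. KCNG3, KCNIP3, KCNJ4, KCNK2 and KCNRG lost their call at an adjusted p under 0.01. Over the 18 lists, 110 of 151 counts stayed within 1.5 times.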
